A study of Homo sapiens with 8 samples.

Results

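The 10 smooth muscle contractile genes ACTA2, ACTG2, TAGLN, CNN1, CNN2, MYL9, CALD1, TPM1, TPM2 and SRF were followed in LX-2 cells whose O-GlcNAc transferase (OGT) was inhibited. They were taken by symbol, 10 of the 16796 genes in the deposited files, and all 10 passed the low-count filter among the 14895 genes tested. OGT is the enzyme that links the sugar O-GlcNAc to proteins inside the cell, and LX-2 is an established line of human hepatic stellate cells (HSCs), the cells that turn into collagen-producing myofibroblasts (MFs) in injured liver. All cells grew in DMEM with 5% fetal bovine serum. The 4 control cultures received the vehicle DMSO and the 4 OGTi cultures received 50 µM OSMI-1, an OGT inhibitor, for 24 h, and replicates 1 to 4 of each group were described as biological replicates. Messenger RNA was sequenced, and each library held 24166756 to 28201215 counts. LX-2 is a single immortalized line, so no replicate stands for a separate donor. The comparison asked how expression of the contractile machinery differed after OGT inhibition.

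Smooth muscle cells and MFs pull on their surroundings with actin filaments and non-sarcomeric myosin. Phosphorylation of the myosin light chain switches the motor on, while tropomyosin, caldesmon and calponin lie along the actin filament and tune its access to myosin. The transcription factor serum response factor (SRF) drives many of these genes through a short DNA element, the CArG box. It acts together with coactivators of the myocardin family (MYOCD, MRTFA and MRTFB), of which MRTFA and MRTFB respond to the pool of unpolymerized actin. ACTA2, or α-smooth muscle actin, is the classical marker of an activated stellate cell.

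All 10 contractile genes were lower in OGTi than in control cells. The smooth muscle actins fell most, ACTG2 to 22.7% and ACTA2 to 29.8% of control, and TPM2 fell least, to 73.1%. TPM1, CALD1 and CNN1 were left at 37.3%, 38.0% and 40.9% of control, TAGLN at 48.0%, MYL9 and CNN2 at 56.3% and 56.9%, and SRF itself at 65.8%. A gene was called when its adjusted p (q) from the DESeq2 fit across all genes was 0.05 or lower, and by that rule 10 of 10 were called lower and 0 higher (9 lower without the replicate block or without pair 1, when TPM2 lost its call). Of the 14028 genes with a q, 46.6% were called in either direction, 24.0% lower and 22.7% higher. Every OGTi library lay below every control library for 9 of the 10 (19.2% of all tested genes), TPM2 being the exception. The same 9 were lower in all 4 replicate pairs (28.1% of all tested genes). The median log2 fold change (log2 FC) was -1.17 over the contractile genes and 0.00 over all tested genes. In bulk RNA, fewer cells of a kind and less RNA per cell cannot be told apart.

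The 9 genes that encode contractile proteins, without SRF, took 0.634%, 0.510%, 0.617% and 0.612% of all counts in control replicates 1 to 4. In OGTi replicates 1 to 4 they took 0.312%, 0.325%, 0.325% and 0.287%. The highest OGTi library was therefore below the lowest control library, control replicate 2, and the mean was 0.593% ± 0.056 for control and 0.312% ± 0.018 for OGTi (SD, n = 4 each).

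**Figure D1:**
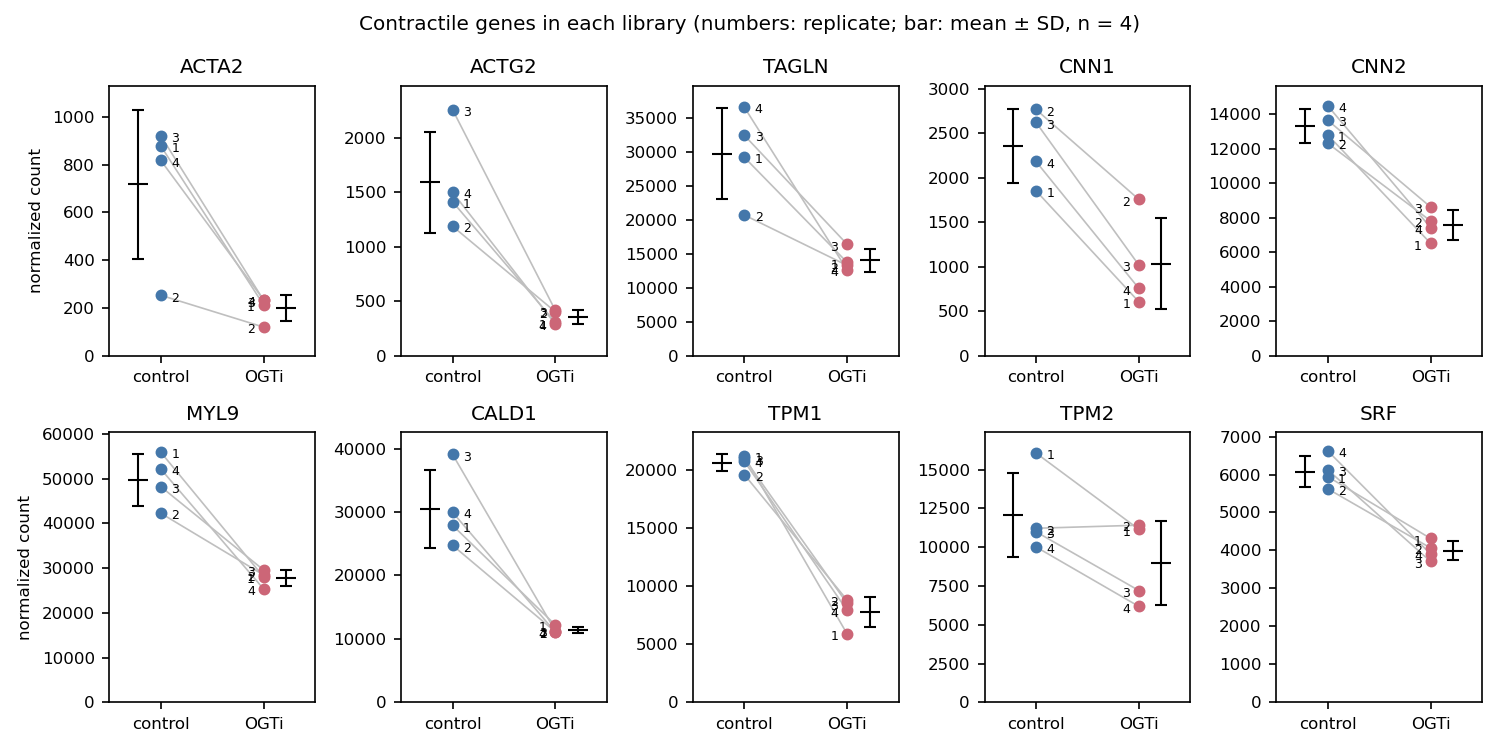
Normalized counts (vertical axes, linear and starting at 0) of the 10 contractile genes in each control and OGTi library, numbered by replicate, with grey lines joining the libraries of a pair and black bars giving the mean ± SD (n = 4). OGTi points lie below control points in every panel except TPM2, and control replicate 2 sits lowest among controls in 8 panels, most visibly at 253.6 for ACTA2.

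The DNA before the start of 4 of these genes is shown because it carries the CArG box, or a close variant, through which SRF acts. Windows of 250 bases before a transcription start were available in RefSeq (GRCh38.p14) for 8 of the 10 genes, 14 windows in all. A CArG box has 10 letters, of which the middle 6 are A or T between CC and GG, and a CArG-like element was taken to have 1 of those 6 replaced by C or G. Searched on both strands, the CArG box was in 3 of the 14 windows and a CArG-like element in 2, against 1.16% and 5.97% of all 34941 RefSeq windows of the same length. The MCAT hexamer bound by TEAD factors (CATTCC or GGAATG) was in 3 of the 14 windows and in 11.9% of all windows. Many of the 10 genes are known SRF targets, so a high share of CArG boxes follows from their choice. The 14 windows are also not independent, since some genes have several and those of TPM2 overlap. No difference from all windows was tested. The windows printed here, 5′ to 3′ on the strand of the gene, are chr10:88952774-88953023 (minus strand) for ACTA2, chr2:73892758-73893007 (plus) for ACTG2, chr19:1026358-1026607 (plus) for CNN2 and chr6:43171019-43171268 (plus) for SRF, with the CArG or CArG-like letters in capitals.
ACTA2: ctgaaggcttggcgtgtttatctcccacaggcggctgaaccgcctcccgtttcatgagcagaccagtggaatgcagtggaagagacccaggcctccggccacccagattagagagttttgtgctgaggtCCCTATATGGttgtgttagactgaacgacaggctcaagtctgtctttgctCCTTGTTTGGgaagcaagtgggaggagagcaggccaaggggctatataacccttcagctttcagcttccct
ACTG2: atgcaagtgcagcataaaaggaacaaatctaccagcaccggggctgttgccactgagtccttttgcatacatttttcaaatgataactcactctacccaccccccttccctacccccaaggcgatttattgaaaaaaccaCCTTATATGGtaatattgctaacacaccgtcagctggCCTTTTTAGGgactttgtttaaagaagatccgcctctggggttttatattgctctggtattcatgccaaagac
CNN2: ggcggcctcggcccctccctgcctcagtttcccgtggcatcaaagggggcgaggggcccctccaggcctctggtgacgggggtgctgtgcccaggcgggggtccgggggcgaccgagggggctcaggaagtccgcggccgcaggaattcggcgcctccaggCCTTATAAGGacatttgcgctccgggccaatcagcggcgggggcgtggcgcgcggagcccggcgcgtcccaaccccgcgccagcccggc
SRF: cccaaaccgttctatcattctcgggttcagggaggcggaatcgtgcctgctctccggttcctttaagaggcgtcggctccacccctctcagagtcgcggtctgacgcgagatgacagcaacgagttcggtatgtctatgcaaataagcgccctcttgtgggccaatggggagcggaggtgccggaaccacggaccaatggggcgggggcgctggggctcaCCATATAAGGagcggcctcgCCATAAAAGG

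The ACTA2 window held no exact CArG box but 2 CArG-like elements, CCCTATATGG at 121 to 112 bases and CCTTGTTTGG at 71 to 62 bases before the start, and an MCAT hexamer, GGAATG, at 183 to 178 bases. In the window of ACTG2 there were 2 exact CArG boxes, CCTTATATGG at 110 to 101 and CCTTTTTAGG at 73 to 64 bases before the start. CNN2 had CCTTATAAGG at 89 to 80 bases. SRF, which is known to regulate its own gene, had CCATATAAGG at 30 to 21 and CCATAAAAGG at 10 to 1 bases. Of the CALD1 windows, chr7:134711249-134711498 held the CArG-like element CCTAAAGAGG, and 2 others each held an MCAT hexamer. None of the 3 motifs was found in the windows of CNN1, TPM1 and TPM2. These are matches of letters only, and no binding was measured.

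Among the actins, the filament-forming proteins themselves, both smooth muscle forms fell steeply. ACTA2 (chr10:88935074-88991339, minus strand, GRCh38) had 878, 253.6, 920.5 and 817.5 normalized counts in control replicates 1 to 4. The OGTi replicates held 213, 120.5, 233 and 234.4. Control replicate 2 was far below the other controls and only slightly above the highest OGTi library, so the groups did not overlap but came close. The log2 FC was -1.75 ± 0.16 (SE; DESeq2, q = 3.45e-27), and without pair 2 it was -1.94. Fitted without the replicate block, ACTA2 had a log2 FC of -1.84 and a much larger q of 0.000173. ACTG2, the γ-enteric smooth muscle actin (chr2:73892314-73919865, plus strand), had 1415, 1190, 2260 and 1502 normalized counts in control cells. In OGTi cells it had 308, 405, 417.2 and 291.5, and the groups were far apart. Its log2 FC of -2.14 ± 0.13 (q = 2.06e-56), 4.41-fold lower, was the largest fall among the 10 genes. An exon of ACTA2 overlaps one of FAS on the opposite strand, and FAS held 770 counts over the 8 libraries against 3587 for ACTA2. The libraries were strand-specific and, according to the study's methods, were counted with RSEM set for the reverse strand.

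Calponins and transgelin are actin-binding proteins of one family, and CNN1 and TAGLN are late and early markers of smooth muscle differentiation. TAGLN, or SM22α (chr11:117199370-117207464, plus strand), had 29197, 20705, 32430 and 36563 normalized counts in control replicates 1 to 4. OGTi replicates held 13744, 13301, 16404 and 12642. The OGTi libraries were tightly grouped and the control libraries were spread from control replicate 2 up to control replicate 4. TAGLN was 2.08-fold lower, with a log2 FC of -1.06 ± 0.18 (q = 4.82e-08). It shares exonic sequence with PCSK7 on the opposite strand, whose total over all libraries was 9.33% of the TAGLN total.

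CNN1, or basic calponin (chr19:11538767-11550323, plus strand), had 1854, 2767, 2622 and 2183 normalized counts in control replicates 1 to 4 and 607.7, 1757, 1020 and 758 in OGTi cells. Its replicates moved together: replicate 2 was the highest in both groups and replicate 1 the lowest. OGTi replicate 2 came close to control replicate 1, but within each pair the OGTi library was at most 63.5% of its control. The log2 FC was -1.29 ± 0.22 (q = 1.71e-08, or 0.00321 without the replicate block). CNN2, the calponin of non-muscle and smooth muscle cells (chr19:1026586-1039068, plus strand), had 12790, 12306, 13638 and 14476 normalized counts in control cells. With OGTi there were 6516, 7812, 8617 and 7426. Both groups were narrow and well separated, giving a log2 FC of -0.81 ± 0.08 (q = 3.87e-24).

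Tropomyosins coil along the actin filament, and caldesmon, encoded by CALD1, binds actin, tropomyosin and myosin. TPM1 (chr15:63042620-63071915, plus strand) had 21208, 19626, 21012 and 20772 normalized counts in control cells, the narrowest control group of the 10 genes relative to its mean, and 5898, 8808, 8529 and 7925 in OGTi cells. Its log2 FC was -1.42 ± 0.09 (q = 5.7e-49). TPM1 was the only one of the 10 with fractional expected counts, in all 8 libraries, where the counting divided reads between genes. TPM2 (chr9:35681992-35690056, minus strand) overlapped between the groups, with 16066, 11218, 10994 and 10017 normalized counts in control cells and 11151, 11417, 7209 and 6185 in OGTi cells. Control replicate 1 was far above the other controls, OGTi replicates 1 and 2 lay within the control range, and pair 2 did not fall (102% of control). The log2 FC of TPM2 was -0.45 ± 0.10 (q = 2.65e-05). That call depended on the pairing of replicates, with q = 0.201 without the replicate block, and on pair 1, with q = 0.0666 without it.

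CALD1 (chr7:134744252-134970729, plus strand) had 27916, 24765, 39096 and 29972 normalized counts in control replicates 1 to 4. OGTi replicates held 12205, 11127, 11264 and 11066. The OGTi libraries lay close together while control replicate 3 stood high, and the groups were far apart, with a log2 FC of -1.39 ± 0.09 (q = 3.85e-48). MYL9, the smooth muscle form of the regulatory myosin light chain (chr20:36541497-36551447, plus strand), had 55937, 42298, 48238 and 52180 normalized counts in control cells. In OGTi cells it had 28024, 28484, 29598 and 25352, all below the lowest control. Its log2 FC was -0.83 ± 0.08 (q = 4.61e-22).

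SRF (chr6:43171269-43181506, plus strand), the transcription factor of the set, had 5945, 5624, 6125 and 6622 normalized counts in control cells and 4316, 4066, 3710 and 3905 in OGTi cells. The groups did not overlap, and the log2 FC was -0.60 ± 0.08 (1.52-fold lower, q = 1.81e-13). SRF fell less than 8 of the 9 contractile protein genes, TPM2 being the only one with a smaller fall, but the differences between genes in log2 FC were not tested.

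The replicates were not equal for these genes. Control replicate 2 was the lowest control library for 8 of the 10 (ACTA2, ACTG2, TAGLN, CNN2, MYL9, CALD1, TPM1 and SRF), whereas it was the lowest control for 22.1% of all tested genes and for 25.7% of the 3360 genes called lower. Pair 2 gave the weakest fall for 9 of the 10, the exception being SRF, and for 29.2% of the genes called lower. The median log2 ratio of the 10 genes was -1.14, -0.66, -1.14 and -1.41 in pairs 1 to 4, and that of all genes called lower was -0.52, -0.50, -0.55 and -0.53. This contrast between pairs was noticed in the values and was not tested. For ACTA2 the OGTi library of pair 2 still held 47.5% of its control, against 24.3%, 25.3% and 28.7% in pairs 1, 3 and 4. ACTG2 in pair 2 was at 34.0% of control, against 21.8%, 18.5% and 19.4%. Without pair 2, all 10 genes were still called lower. Control replicate 2 was also the deepest library, at 28201215 counts, and whether depth had a part in its low values was not tested.

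Levels were compared between genes as normalized counts per kilobase of canonical transcript (GENCODE 44). In control cells the order was MYL9 (17826 ± 2093), TPM1 (16972 ± 582), TPM2 (10146 ± 2279), TAGLN (7851 ± 1777), CNN2 (6190 ± 445), CALD1 (6074 ± 1229), CNN1 (1572 ± 278), SRF (1437 ± 98.6), ACTG2 (1060 ± 309.6) and ACTA2 (531.8 ± 231.3; SD, n = 4). ACTA2 was thus the least abundant of the 10 transcripts in these cells, and MYL9 the most. Neighbours in this order had separate control ranges only at the steps from TPM1 to TPM2, from CALD1 to CNN1 and from ACTG2 to ACTA2. In OGTi cells MYL9 (10002 ± 646) still came first and ACTA2 (148.4 ± 40.0) last, while TPM2 (7555 ± 2255) stood above TPM1 (6401 ± 1080) and SRF (945.2 ± 60.6) above CNN1 (690.9 ± 340.2). The order depends on the transcript length chosen: with the median length of protein-coding transcripts, an alternative chosen after the data were seen, TAGLN moved from place 4 to 2 and TPM2 from 3 to 6, while MYL9 stayed first and ACTG2 and ACTA2 last.

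The close relatives of the contractile genes in their families, mostly the forms used by every cell, also fell. Of 13 relatives, 12 were tested, 10 were called lower and 0 higher, against 24.0% and 22.7% of all genes with a q. Only the light chain MYL12A had a q without a call (log2 FC -0.09 ± 0.07, q = 0.282). TAGLN3 was under the low-count filter and the skeletal actin ACTA1, at 0 to 8.04 normalized counts, had no q. The cytoplasmic actins ACTB (log2 FC -0.82 ± 0.07, q = 3.95e-30) and ACTG1 (-0.66 ± 0.08, q = 6.45e-16) had smaller log2 FC than ACTA2 and ACTG2. The cardiac actin ACTC1, another actin of contractile cells, went from 113.7 to 190.8 normalized counts in control libraries to 5.01 to 19.2 in OGTi libraries. Its log2 FC of -4.03 ± 0.37 (q = 1.25e-25) was larger than that of any of the 10 genes, at a level far below theirs. TAGLN2 (-1.27 ± 0.06, q = 3.13e-88) and TPM4 (-1.37 ± 0.07, q = 3.33e-88) fell about as far as TAGLN and TPM1. Smaller falls were found for CNN3 (-0.30 ± 0.07, q = 3.94e-05), TPM3 (-0.27 ± 0.07, q = 0.000233), and the light chains MYL6 (-0.69 ± 0.08, q = 5.74e-18), MYL6B (-0.31 ± 0.09, q = 0.00178) and MYL12B (-0.35 ± 0.07, q = 1.09e-05). ACTB and ACTG1 had fractional counts in 6 libraries and TPM3 in all 8, so their division of reads among similar genes is less certain.

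**Figure D2:**
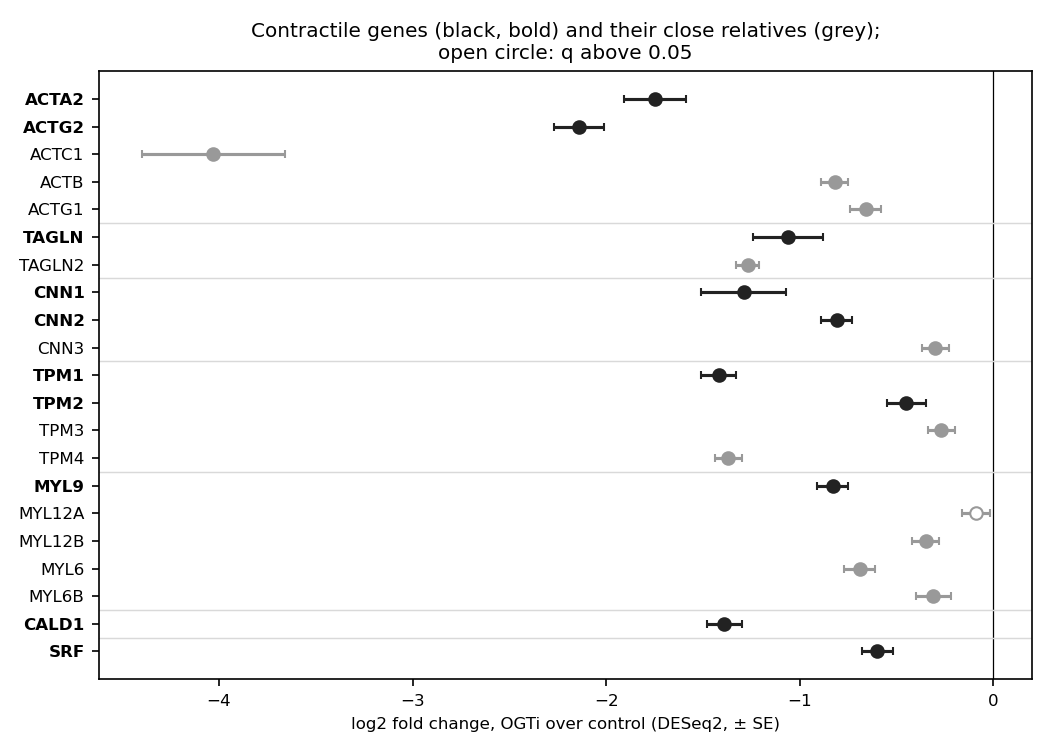
Log2 FC of OGTi over control (horizontal axis, DESeq2, bars ± SE) for the 10 contractile genes (black, bold names) and their close relatives with a q (grey), grouped by family, an open circle marking q above 0.05. All black points lie left of 0, from -0.45 for TPM2 to -2.14 for ACTG2, ACTC1 lies farthest left at -4.03 and MYL12A is the only open circle.

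Whether a contractile gene changed more than its family was asked from its share of the family, in counts per kilobase. Counts were summed per gene, so muscle and non-muscle transcripts of the same gene were not told apart. The smooth muscle actins were a minor part of the actin pool: ACTA2 and ACTG2 together made 0.708%, 0.513%, 0.837% and 0.629% of the counts of 6 actins in control replicates 1 to 4. In OGTi replicates they made 0.277%, 0.267%, 0.309% and 0.267%, all below every control. The mean went from 0.671% ± 0.140 to 0.280% ± 0.020. MYL9 went from 47.1% ± 2.6 to 37.0% ± 2.3 of the 3 light chains MYL9, MYL12A and MYL12B. TPM1 went from 34.3% ± 2.1 to 27.3% ± 4.3 of the 4 tropomyosins (SD, n = 4 each). For each of these 3 shares the groups did not overlap, all 4 pairs were lower in OGTi, and p was 0.0286 in a two-sided exact permutation test, the smallest that 4 against 4 libraries can give. Adjusted over the 6 shares, q was 0.0571, which misses 0.05.

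The other 3 shares had overlapping groups. CNN1 was at 9.5% ± 1.4 of the calponins in control and 6.0% ± 2.6 in OGTi cells, lower in all 4 pairs (exact permutation p = 0.0857, q = 0.103). The share of TPM2 among tropomyosins was 20.5% ± 4.7 in control and 32.1% ± 9.1 in OGTi cells, higher in all 4 pairs (exact permutation p = 0.0857, q = 0.103). TAGLN was at 42.5% ± 6.2 and 46.0% ± 3.8 of the transgelins, higher in 3 of 4 pairs (exact permutation p = 0.429). None of the 6 shares passed the adjusted threshold, and no share could have passed it by its own p alone. The 3 shares without overlap already had the smallest possible p, so their q of 0.0571 cannot decide the question. The level of a share depends on the transcript length used: with the median length of protein-coding transcripts TAGLN was at 64.1% ± 5.9 and 67.4% ± 3.3, and CNN1 at 14.4% ± 2.2 and 9.63% ± 3.9. Counted without length, MYL9 was at 69.8% ± 2.2 in control and 60.6% ± 2.4 in OGTi cells. TPM1 was then at 21.6% ± 2 and 16.7% ± 3, and TPM2 at 12.7% ± 3.4 and 19.4% ± 6.4. The direction of these differences did not change.

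**Figure D3:**
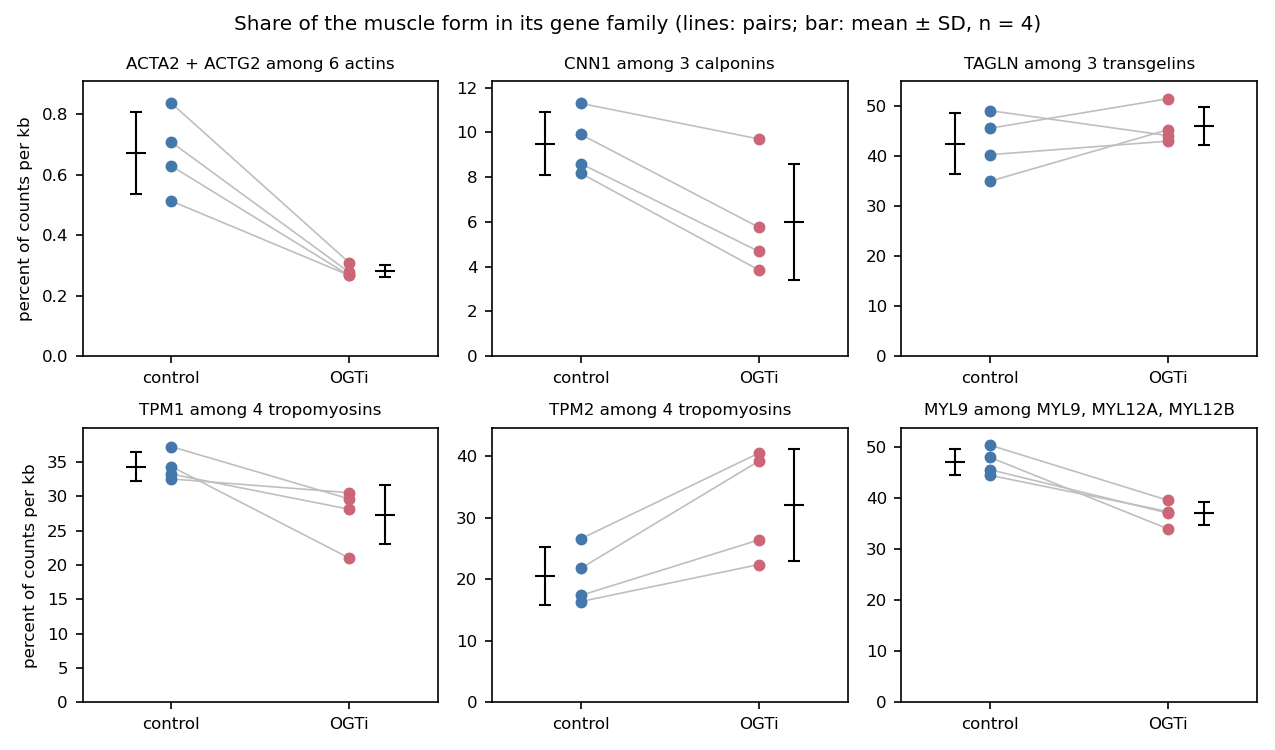
Share of the contractile genes (titled muscle form) within their gene family, as percent of counts per kilobase on vertical axes starting at 0. Each point is a library of the control or OGTi group. Grey lines join pairs and black bars give the mean ± SD (n = 4). The shares of the smooth muscle actins, TPM1 and MYL9 are lower in every OGTi library than in any control library, from 0.671% to 0.280% on average for the actins, while that of TPM2 is higher in each OGTi library than in its paired control and that of TAGLN is higher in 3 of 4 pairs.

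Other genes of smooth muscle contraction and its dense bodies, which anchor actin filaments, fell less uniformly. Of 24 such genes, all tested and 22 with a q, 14 were called lower and 3 higher, against 24.0% and 22.7% of all genes. Their median log2 FC was -0.57. The myosin light chain kinase MYLK, which phosphorylates the light chain, fell (-0.99 ± 0.07, q = 3.16e-47), as did the LIM protein LPP (-1.34 ± 0.09, q = 7.12e-45). Among those called higher, named after their values were seen, were the actin-binding smoothelin gene SMTN (0.42 ± 0.10) and the intermediate filament gene SYNM (0.35 ± 0.11). SMTN lost its call without pair 3 (q = 0.0699) and SYNM without pair 1 (q = 0.0934). MYH11, the heavy chain of smooth muscle myosin and the most specific marker of mature smooth muscle, was nearly undetected, at 0 to 8.46 normalized counts in control and 0 to 7.31 in OGTi libraries, and desmin, DES, was at 0 to 4.16 over all 8 libraries.

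The non-muscle motor and its activators fell by smaller amounts. Of 22 genes, 21 were tested, 15 were called lower and 3 higher, against 24.0% and 22.7% of all genes with a q. Their median log2 FC was -0.33. MYH9, the main non-muscle heavy chain in these libraries at 105168 ± 14143 control counts, was at 44829 ± 1656 in OGTi cells (-1.22 ± 0.08, q = 1.06e-50). RHOA, a small GTPase upstream of myosin phosphorylation, fell too (-0.57 ± 0.07, q = 3.42e-17). ARHGEF2, an exchange factor for RHOA, rose (0.73 ± 0.09, q = 3.34e-16). RHOC, named after its value was seen, was also called higher (0.28 ± 0.07).

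Of the SRF cofactors and modulators, 13 were listed, 12 tested, 4 called lower and 2 higher, with a median log2 FC of -0.13. These counts were not far from the shares of all genes with a q, 24.0% called lower and 22.7% higher. MYOCD was under the low-count filter. MRTFA averaged 2236 ± 105.5 normalized counts without and 2220 ± 126.2 with OGTi (-0.01 ± 0.08, q = 0.928). MRTFB was lower (-0.54 ± 0.12, q = 5.28e-05) in all 4 pairs, with overlapping groups. The ternary complex factors (TCFs), which pair with SRF at immediate early genes, had no call: ELK1 (0.09 ± 0.08), ELK3 (-0.11 ± 0.23) and ELK4 (0.14 ± 0.10). Without pair 1, ELK3 was called lower (-0.34, q = 9.03e-05). The LIM-only genes FHL1 (-0.63 ± 0.07, q = 7.11e-16) and FHL2 (-0.99 ± 0.09, q = 1.33e-28) fell. HOPX, whose protein antagonizes SRF, fell at a low level from 34.5 ± 13 to 12.4 ± 6.1 normalized counts (q = 0.00592, or 0.0829 without pair 4). CSRP2, a smooth muscle LIM protein (0.75 ± 0.13, q = 1.85e-07), and KLF4, a repressor of smooth muscle genes (0.86 ± 0.12, q = 5.29e-11), rose. KLF5 (-0.15 ± 0.09, q = 0.131) and GATA6 (-0.27 ± 0.22, q = 0.341) had no call.

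SRF has a pair of classical target groups, one reached with MRTFs and one with TCFs. Most genes of the first group were lower and most of the second were higher. Of 16 MRTF-linked targets outside contraction, 13 were called lower and 2 higher, against 24.0% and 22.7% of all genes with a q. Their median log2 FC was -0.51. PHLDB2 (-1.22 ± 0.08, q = 6.81e-51), the focal adhesion gene ZYX (-0.88 ± 0.07, q = 3.71e-37) and AJUBA (-1.22 ± 0.10, q = 1.55e-33) had the largest Wald statistics of this list, which is not an order by fold. FHOD1 was called higher (0.84 ± 0.07), as was ITGA5 (0.19 ± 0.08, q = 0.0447), and CCN2 had no call (q = 0.457), these names being chosen after their values were seen. ITGA5 was higher in 3 of 4 pairs and lost its call without the replicate block (q = 0.0733), with edgeR (q = 0.0536) and without pair 1, 2 or 3 (q = 0.288, 0.203 and 0.071). CCN2 was called higher without pair 4 (0.38, q = 0.00243). Of 12 TCF-linked immediate early genes, 1 was called lower and 8 higher, against the same 24.0% and 22.7% of all genes. Their median log2 FC was 0.63. DUSP5 (1.47 ± 0.12, q = 1.8e-35), JUNB (1.37 ± 0.12, q = 4.04e-30) and IER2 (0.65 ± 0.09, q = 5.36e-13) rose. The gene that was lower, EGR1 (-1.07 ± 0.23, q = 1.07e-05), was named after its value was seen. The difference between these lists was not tested, and several of their genes also answer to other factors.

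Striated muscle genes were largely absent. Of 23 sarcomere genes, 10 were tested, 7 had a q and 3 were called lower, 0 higher, against 24.0% and 22.7% of all genes. The median log2 FC was 0.49 over the 10. NEB, named after its values were seen, was higher in all 4 pairs at 1.15 to 9.36 normalized counts in control and 7.69 to 19.1 in OGTi libraries, so the groups overlapped (log2 FC 1.86 ± 0.83, q = 0.0532). It was called higher without the replicate block (q = 0.0427), with edgeR (q = 0.0206) and without pair 4 (q = 0.0473). Slow troponin T, TNNT1, fell from 802.8 ± 141.2 to 551.7 ± 139.8 normalized counts (-0.56 ± 0.11, q = 2.29e-06). MYH2 was at 5.20 to 17.9 normalized counts in control libraries and at 0 to 1.0 in OGTi libraries (q = 0.000668). MYL3, at 12.2 to 29.9 and 6.40 to 16.3, had overlapping groups and a q of 0.0469, and it lost its call when any one pair was left out.

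**Figure D4:**
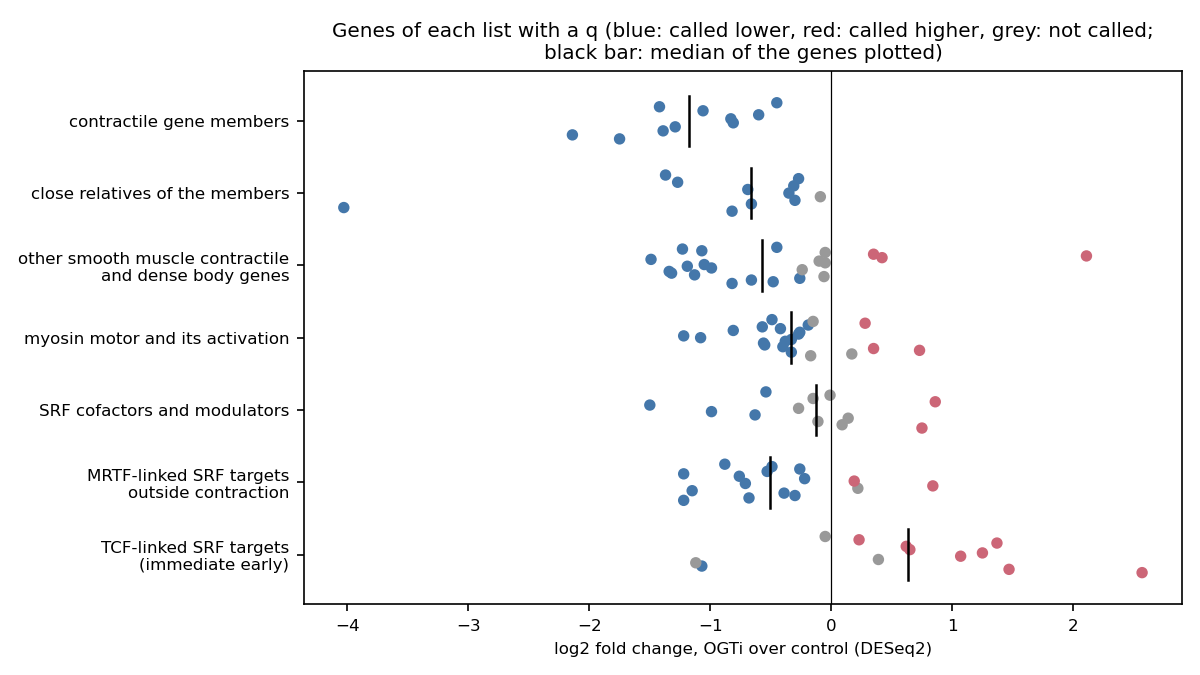
Log2 FC of OGTi over control (horizontal axis, DESeq2) for the genes with a q in each list, coloured by call, with a black bar at the median of the plotted genes. The 10 contractile genes are all blue (called lower), most relatives and MRTF-linked targets are blue, and 8 of the 12 TCF-linked immediate early genes are red (called higher). Of all genes with a q, 24.0% were called lower and 22.7% higher.

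The genes whose levels followed ACTA2 most closely were ranked by Pearson's r with ACTA2 over the 8 libraries, on log2(normalized count + 1), among the 10993 genes that averaged 100 normalized counts or more. They were FEZ2 (r = 0.988), DOP1B (0.980), ZNF93 (0.979), RHOA (0.973) and XPO7 (0.968). Like ACTA2, each had its lowest control value in replicate 2, for example 1238 normalized counts of FEZ2 against 1464 to 1570 in the other controls. The ranking itself favours this, because ACTA2 was far lowest among the controls in replicate 2. Falls of these genes were smaller, with log2 FC of -0.34 for FEZ2, -0.50 for DOP1B, -0.32 for ZNF93, -0.57 for RHOA and -0.41 for XPO7. Among the contractile genes r with ACTA2 was highest for TAGLN (0.930), lay between 0.793 and 0.879 for TPM1, CNN2, SRF, ACTG2, CALD1 and MYL9, and was lowest for CNN1 (0.495) and TPM2 (0.383). The 8 points share a treatment split and their libraries, so these values are descriptions.

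The labelled cell type was checked against marker genes. Of 14 stellate cell and fibroblast markers, 12 were tested and 9 averaged 100 normalized counts or more, among them COL1A1, COL1A2, COL3A1, PDGFRB, VIM and THY1. DCN and HAND2 were under the filter, and LUM and LRAT were near 0. Their summed level was 221339 to 246649 in control and 166962 to 200323 in OGTi libraries, with 6 called lower, 2 (TIMP1 and S100A6) called higher, VIM and RGS5 not called and LUM and LRAT without a q. Of all genes with a q, 24.0% were called lower and 22.7% higher. Most of the drop in the sum was COL1A1, with 84778 normalized counts on average in control and 43931 in OGTi libraries. Hepatocyte markers summed to 19.54 to 74.04 in control and 25.96 to 74.02 in OGTi libraries (1 of 6 tested, 0 called), with ALB, APOA1, TTR, HNF4A and CYP3A4 under the filter. Endothelial markers summed to 47.7 to 91.1 and 17.0 to 33.8 (3 of 6 tested, CDH5 called lower). Leukocyte markers summed to 2503 to 4090 and 5628 to 9405 (4 of 6 tested), nearly all from CD68, which was called higher, while CD163 and MARCO were under the filter. Epithelial markers summed to 681 to 1151 and 954.1 to 1273 (2 of 5 tested, KRT7 lower and SOX9 higher), with EPCAM, KRT19 and CDH1 under the filter. The part of these marker changes in the fall of the contractile genes was not tested.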

How the data were processed

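Poly(A) RNA of 8 LX-2 cultures, 4 control and 4 OGTi, was sequenced from strand-specific libraries, and groups were taken from the sample titles and treatments (spelled DSMO for control replicate 4). According to the submitters' processing notes, reads were aligned to hg38 with Bowtie2 2.3.5.1 and quantified with RSEM 1.3.1, set for the reverse strand in the study's methods. The authors deposited gene-level expected counts without normalization, 1 table per library. A further deposited table of DESeq2 1.36.0 fold changes and p-values was not used. Expected counts were rounded, and genes with a total under 10 were removed. The main fit was a DESeq2 1.42.0 Wald test (R 4.3.3) over all genes with the replicate number as a block, as in the study's methods, with Benjamini-Hochberg adjustment (q) and calls at 0.05. Normalized counts are counts divided by median-of-ratios size factors.

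The labels share replicate numbers 1 to 4, and same-numbered libraries deviated together from their group means (Pearson r over 11005 genes of 0.386, 0.413, 0.185 and 0.345), which was taken as pairing because each was above 0.1. Control 3 with OGTi 4 (0.382) and control 4 with OGTi 3 (0.27) correlated more than pair 3 did. Control 1 with OGTi 2 (0.134) was also above 0.1, so this cut-off does not set the pairs apart from other combinations. No library was a copy of another (chi-square per degree of freedom 8.66 to 36.2 within groups). Libraries held 24166756 to 28201215 counts, and 12829 to 13180 genes reached 10 counts. Of all 16796 genes listed, 12.9% to 16.3% per library had fractional counts. With 4 libraries per group, p-values of the main fit rest on the spread left between these cultures of 1 line after the replicate block. Those of the permutation tests rest on the whole spread between cultures.

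Gene positions, exon overlaps and canonical transcript lengths came from GENCODE 44, and promoter windows from RefSeq. The 6 family shares used a two-sided exact permutation test of 70 splits. Alternatives were a fit without the block, edgeR 4.0.16 (quasi-likelihood, with the block), TMM size factors, other low-count filters, leaving out each pair, counts not divided by length, and, added after seeing the data, median transcript length. The fits were tested on simulated data for this comparison (14713 genes, 200 changed 2-fold): DESeq2 recovered 190 with 6.4% of its calls false, and edgeR 189 with 10.4% false, above the nominal level. The simulation had no replicate effect, and a far smaller part of its genes changed than was called here. Its false shares therefore do not carry over to the real calls. Named genes were all 10 contractile genes, their relatives, the SRF cofactors, the 3 called genes with the largest Wald statistic moving one way in all 4 pairs in each other list, and the 5 genes most like ACTA2. Other names are said to be chosen after their values were seen, and a few listed genes are counted but not reported here by name. The contractile genes and all lists were chosen with earlier results of these data known. No promoter window of TAGLN and MYL9 was used.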

Additional observations from a re-analysis of the deposited data

Results flagged for a closer look

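A library was taken as standing apart when its gap to the nearest of the other 3 libraries of its group, divided by the range of the group, was above Dixon's 95% critical value for 4 samples. Of 114 groups, 102 of 51 named genes that averaged 10 or more normalized counts and 12 of the 6 family shares, 7 met this, and chance gives about 1 in 20, or 5.7. For ACTA2 the normalized count of control replicate 2 was 253.6, below 817.5 to 920.5 in the other controls, and leaving out pair 2 moved its log2 FC from -1.75 to -1.94. The other 6 were TAGLN2, high in control replicate 1 (15695), FHL2, high in OGTi replicate 2 (1586), MYH9, low in OGTi replicate 4 (42351), ZYX, low in control replicate 2 (39873), MYL3, low in control replicate 2 (12.2), and FEZ2, low in OGTi replicate 2 (1051). Of the 10 contractile genes, ACTA2 was the only one with such a library.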

How the results depend on the processing

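Over the 9 alternative fits, 88 of 90 values of the 10 contractile genes kept their direction and their side of the threshold. The exceptions were both TPM2: its log2 FC was -0.43 (q = 0.201) without the replicate block, which left 9 of the 10 genes called lower, and -0.43 (q = 0.0666) without pair 1, which also left 9. Without the replicate block 6307 genes were called, against 6541 with it. The edgeR fit called 7193, and 10.4% of its calls were false on simulated data, which had fewer changed genes and no replicate effect. Leaving out one pair at a time gave 5127 to 5690 calls, and the log2 FC then ranged from -1.94 to -1.64 for ACTA2, from -2.33 to -2.04 for ACTG2, from -0.61 to -0.37 for TPM2, from -1.65 to 0.55 for ACTA1 and from -0.03 to 0.01 for MRTFA. Without pair 4, ACTA1 had a log2 FC of 0.55 with no q and MRTFA one of 0.01 (q = 0.933), both of the opposite sign to the fit on all pairs. Of 474 values of the 53 named genes, 461 kept direction and side. ELK3 became lower without pair 1 (-0.34, q = 9.03e-05), HOPX lost its call without pair 4 (q = 0.0829), ZNF93 without pair 1, 3 or 4, and MYL3 without each of the 4 pairs in turn; the cause was not tested. The TPM2 call rests on the pairing, in which control 3 correlated more with OGTi 4 (0.382) than with OGTi 3 (0.185). The 6 differences in share kept their direction and stayed above q = 0.05 under each alternative. Median transcript length moved the levels of the TAGLN and CNN1 shares by about 1.5 times. Counts not divided by length also moved the levels of the MYL9, TPM1 and TPM2 shares. However, 4 pairs cannot give an exact p below 0.125, nor 3 against 3 libraries an exact p below 0.1, so those settings could not have passed. Paired sign flips, the replicate block for the shares, gave q = 0.15 for 5 shares and 0.375 for TAGLN. Genes near the low-count filter (ACTA1, MYH2, MYL3, HOPX) rest on few counts per library.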
